A study of Mus musculus with 4 samples.

Results

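The genes of oxidative phosphorylation (OXPHOS) were examined in 4 single-cell libraries of sorted mouse satellite cells, with genes encoded in the nucleus and in mitochondrial DNA kept apart. Members were chosen by symbol and not by their values. Nuclear members have symbols that begin with Ndufa, Ndufb, Ndufc, Ndufs or Ndufv (complex I), Sdha to Sdhd (complex II), Uqcr (complex III), Cox4i, Cox5, Cox6, Cox7 or Cox8 (complex IV) and Atp5 (complex V, ATP synthase), without Ndufaf symbols and pseudogenes. Mitochondrially encoded members have symbols that begin with mt-Nd, mt-Co, mt-Atp or mt-Cytb. The rule took 98 of the 27998 genes counted, 85 of them nuclear (38 in complex I, 4 in complex II, 8 in complex III, 18 in complex IV and 17 in complex V) and 13 mitochondrially encoded (7 in complex I, 1 in complex III, 3 in complex IV and 2 in complex V). *Ndufa4* and its paralog *Ndufa4l2* were counted in complex I by name, although the NDUFA4 protein is found with complex IV. *Atp5sl* and *Atp5s* are older symbols of *Dmac2* and *Dmac2l*, which are not subunits of ATP synthase.

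Complexes I and II pass electrons from NADH and succinate to ubiquinone, complex III passes them to cytochrome c, and complex IV passes them to oxygen. Complexes I, III and IV pump protons across the inner mitochondrial membrane, and ATP synthase makes ATP from the gradient. Most subunits are made from nuclear genes and imported, while a small set of core subunits is made inside mitochondria from mitochondrial DNA. Quiescent satellite cells are known for few mitochondria and low respiration, and both are known to increase with activation and differentiation.

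Each library held the satellite cells of 2 pooled mice, sorted from lower hindlimb muscle as α7-integrin+ and VCAM1+ and negative for CD11b, SCA1, CD45 and CD31. The groups were B10 (C57/Bl10ScsSn, 15 weeks), *mdx* (C57BL/10ScSn-Dmdmdx, 11 weeks), DBA (DBA/2, 13 weeks) and D2-*mdx* (D2.B10-Dmdmdx, 14 weeks), and all mice were male. The *mdx* strains carry the *Dmdmdx* allele, a point mutation that ends the full-length dystrophin protein early, on 2 genetic backgrounds. Age differs between all groups, so age, genotype and strain cannot be told apart.

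With 1 library per group there is no replicate, no test was made and no p-value is given. Levels are unique molecular identifiers (UMIs) of a gene per 1000000 UMIs (CPM) in the pooled myogenic cells of each library, and brackets hold exact 95% intervals that cover counting error only, not the spread between mice. In libraries of summed cells, fewer cells of a type and less RNA per cell cannot be told apart. Genes were compared where their mean over the 4 libraries was at least 10 CPM, which 8058 genes passed, among them 77 of the 85 nuclear and all 13 mitochondrially encoded members. The 8 others were *Cox4i2*, *Cox6a2*, *Cox7a1*, *Cox8b*, *Ndufa4l2* and *Atp5s*, with few UMIs in myogenic cells, and *Cox7b2* and *Cox8c*, with none. A gene is counted as higher or lower where its log2 ratio passes 0.32 in that direction, a ratio of 5 to 4.

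After filters on genes per cell, mitochondrial UMIs and doublets, 3279 to 6313 cells per library were kept, of which, for B10, *mdx*, DBA and D2-*mdx*, 4418, 4817, 2699 and 4184 were myogenic with 30117934 to 40327410 UMIs per library. The B10 library stood apart, with 4739 of its 9931 barcodes under 1000 genes and 4143 over 8% mitochondrial UMIs, against 11 to 21 and 30 to 272 in the others. Pairs of libraries shared 3 to 8 cell barcodes. *Dmd* was at 324 CPM in B10 and 287 CPM in DBA against 120 CPM in *mdx* and 94.7 CPM in D2-*mdx*, lower in both libraries labelled as mutant. Of the sort's markers, *Itga7* was at 62.4 to 82.6 CPM and *Vcam1* at 354 to 579 CPM in myogenic cells. There *Ptprc* (CD45), *Pecam1* (CD31), *Ly6a* (SCA1) and *Itgam* (CD11b) were at 0 to 8.71 CPM, and the satellite cell gene *Pax7* at 424 to 907 CPM. Myogenic cells were picked by clustering, so these low levels are no check of the sort. Over all kept cells *Ly6a* was at 5.92 to 130 CPM and *Pecam1* at 4.21 to 40.9 CPM, both highest in *mdx*. *Ptprc* was at 0.22 to 14.8 CPM and *Itgam* at 0.12 to 8.10 CPM, both highest in D2-*mdx*.

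Nuclear OXPHOS genes took a larger share of the RNA in the myogenic cells of both dystrophic libraries, and mitochondrially encoded ones took a smaller share. Nuclear members held 1.772% of B10 UMIs [1.768, 1.776] and 2.23% of *mdx* UMIs [2.224, 2.233], and 1.81% of DBA UMIs [1.803, 1.813] and 2.54% of D2-*mdx* UMIs [2.533, 2.543]. The mitochondrially encoded members held 4.14%, 3.26%, 3.77% and 3.45% in the same order. For each nuclear UMI there were therefore 2.33 mitochondrially encoded UMIs in B10 against 1.46 in *mdx*, and 2.08 in DBA against 1.36 in D2-*mdx*. Cells over 8% mitochondrial UMIs had been left out, which limits how high the mitochondrially encoded share can go in any library. The wildtype libraries lay close together in the nuclear share, while in the mitochondrially encoded share B10 lay further from DBA than DBA from D2-*mdx*.

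Gene by gene, the nuclear members were on balance higher in *mdx* than in B10 and higher again in D2-*mdx* against DBA. The median log2 ratio of *mdx* over B10 was 0.30 over the 77 nuclear members, against -0.03 over all 8058 genes. Of the 77, 32 were higher past 0.32 and 2 lower, where 22.2% and 26.4% of all genes were, and 67 had a ratio above 0. The median lay just under that limit, and the count of 32 varied with the processing, as the closing section gives. For D2-*mdx* over DBA the median was 0.48 against -0.07 over all genes, with 54 of 77 higher past that limit and 0 lower beside 24.1% and 31.2% of all genes. At 1.5-fold, 11 members were higher in *mdx* beside 9.69% of all genes and 23 in D2-*mdx* beside 11.8%, and 0 were lower in either, where 12.4% and 16.4% of all genes were. Over all myogenic cells together the direction was shared by all 5 complexes, with medians for *mdx* over B10, then D2-*mdx* over DBA, of 0.21 and 0.40 in complex I, 0.22 and 0.59 in complex II, 0.49 and 0.63 in complex III, 0.38 and 0.55 in complex IV and 0.31 and 0.47 in complex V. For *mdx* over B10 this did not hold for every complex within the MuSC-like cells, named by markers such as *Pax7* and *Myf5*, as given further below. Over all myogenic cells RNA of myofibres (11 genes, none at 0) moved with these members. Its summed level was 94.6 CPM in B10, 197 CPM in *mdx*, 65.0 CPM in DBA and 363 CPM in D2-*mdx*. In MuSC-like cells the 11 genes held 0.0092%, 0.0096%, 0.0063% and 0.022% of UMIs in the same order, nearly level between B10 and *mdx*. In the differentiating cells described further below they held 0.048%, 0.087%, 0.019% and 0.095%. RNA of erythrocytes (5 genes, none at 0) summed to 276, 461, 299 and 928 CPM. In B10 this sum leaned on 4 cycling progenitor-like cells, where the 5 genes held 15.6% of 64418 UMIs. In MuSC-like cells they held 0.0024%, 0.089%, 0.032% and 0.13% in the same order of libraries. The 11 immediate-early genes of cell isolation summed to 39143, 30215, 32300 and 31338 CPM. In MuSC-like cells these held 3.98%, 4.64%, 3.36% and 4.95%, higher in both dystrophic libraries. The part of each of these in the ratios was not tested.

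**Figure D1:**
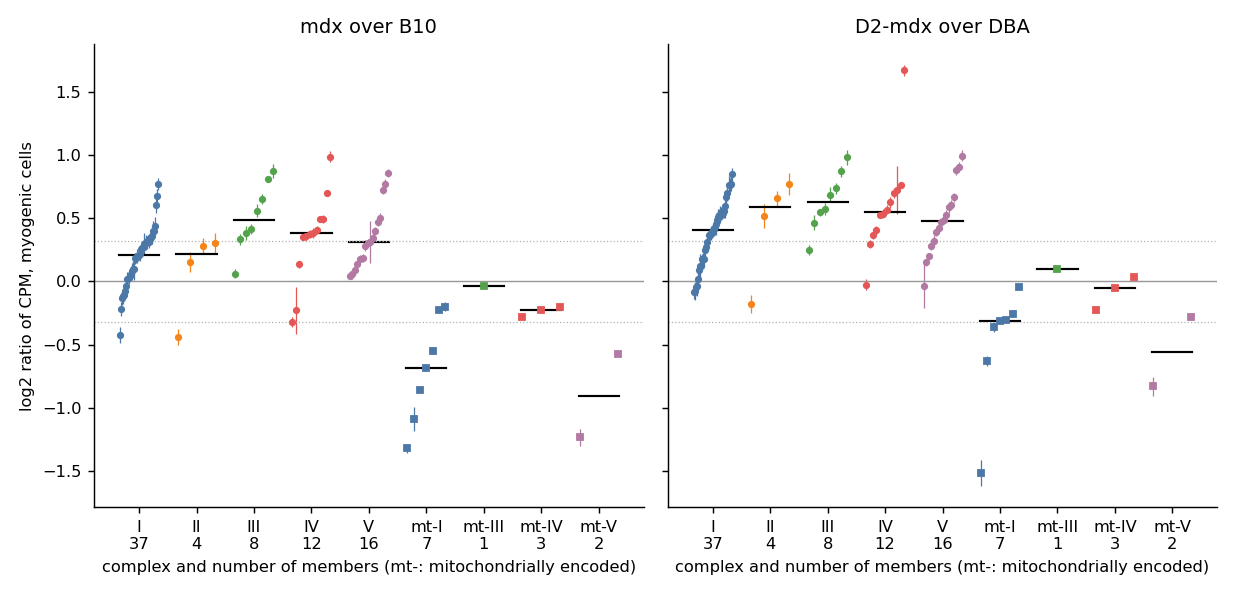
Log2 ratio of each nuclear and mitochondrially encoded OXPHOS member with a mean of at least 10 CPM, *mdx* over B10 (left) and D2-*mdx* over DBA (right), by complex (1 point per gene, a black line at the median, vertical bars for counting intervals, dotted lines at 0.32 either way). The nuclear members of every complex sit mostly above 0, with *Cox5a* highest at 0.98 and 1.67, and the mitochondrially encoded members sit mostly below 0.

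Among the members compared the largest ratio in both comparisons was that of *Cox5a*, a nuclear subunit of complex IV (GRCm38, chr9:57521274-57532426, plus strand). *Cox5a* was at 152 CPM in B10, 300.3 CPM in *mdx*, 184 CPM in DBA and 584 CPM in D2-*mdx*. The D2-*mdx* library was highest, *mdx* next, and the wildtype libraries lowest, with no intervals overlapping. The log2 ratio was 0.98 [0.94, 1.03] for *mdx* over B10, 1.67 [1.62, 1.71] for D2-*mdx* over DBA, 0.96 [0.93, 0.99] for D2-*mdx* over *mdx* and 0.28 [0.22, 0.33] for DBA over B10. Within MuSC-like cells alone, which make up most of the myogenic cells of each library, the ratios were 0.33 [0.27, 0.39] and 0.74 [0.69, 0.80].

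The sequences before the starts of *Cox5a*, *Uqcrfs1* and *Atp5o*, the members with the highest D2-*mdx* over DBA ratios among those compared, and of *Cox6a1*, the lowest of complex IV, are shown so that members that moved apart can be set side by side. They are RefSeq promoter windows of GRCm38.p6 on the strand of the gene, 5′ to 3′, from 250 bases before the start, without bases inside the gene model of the annotation, and capitals mark matches to ACGTG, to CCGGAAG, to GCATGCG or to TATAAA on either strand.
Cox5a, chr9:57520982-57521231, plus strand: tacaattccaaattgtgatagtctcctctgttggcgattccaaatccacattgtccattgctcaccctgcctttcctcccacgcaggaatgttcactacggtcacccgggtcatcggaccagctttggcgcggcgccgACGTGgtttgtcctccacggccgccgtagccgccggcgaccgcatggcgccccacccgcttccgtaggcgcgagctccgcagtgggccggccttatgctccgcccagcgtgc
Uqcrfs1, chr13:30545363-30545566, minus strand: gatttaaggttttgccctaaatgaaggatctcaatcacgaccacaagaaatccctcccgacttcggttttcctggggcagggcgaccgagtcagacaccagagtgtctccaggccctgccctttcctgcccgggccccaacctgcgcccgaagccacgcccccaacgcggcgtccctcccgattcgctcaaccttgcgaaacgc
Atp5o, chr16:91931688-91931880, minus strand: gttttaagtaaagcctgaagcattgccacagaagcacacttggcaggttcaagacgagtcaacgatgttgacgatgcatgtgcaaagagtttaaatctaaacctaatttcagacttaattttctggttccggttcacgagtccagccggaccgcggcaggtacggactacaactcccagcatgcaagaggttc
Cox6a1, chr5:115348982-115349208, minus strand: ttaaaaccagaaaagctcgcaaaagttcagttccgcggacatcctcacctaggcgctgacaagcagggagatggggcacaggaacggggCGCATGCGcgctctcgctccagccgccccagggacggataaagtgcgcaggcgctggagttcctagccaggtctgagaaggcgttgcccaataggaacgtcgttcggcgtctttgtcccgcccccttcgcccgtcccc
The *Cox5a* stretch held 1 ACGTG, the core of the E-box and hypoxia-response type of site, at position -112 from the start. The *Cox6a1* stretch held GCATGCG, from the middle of the palindrome known as the site of NRF1, on both strands at -161 and -160, overlapping, while the *Uqcrfs1* and *Atp5o* stretches held none of the 4 motifs. A CCGGAAG of *Cox6a1* at -16 lies in the bases left out of the stretch shown. Of the 85 nuclear members, 70 had a RefSeq window. Over the 250 bases before the start, ACGTG was in 16 of the 70 (22.9%) and in 18.5% of 27025 genes, CCGGAAG, the core of the ETS type of site, in 12 (17.1%) and 7.83%, GCATGCG in 9 (12.9%, among them *Cox6a1*, *Atp5k*, *Atp5g2* and *Ndufa11*) and 3.43%, CCATNTT, the YY1 type of site, in 10 (14.3%) and 14.1%, and TATAAA in 6 (8.57%) and 14.3%. These are counts of letters in a window, and overlaps between motifs were not removed. The median share of G and C was 56.2% over the windows of members and 52.4% over all windows, and its part in these counts was not tested.

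Complex I, the entry point for electrons from NADH, had the most members and the smallest shift. Of its 37 compared nuclear members, 9 were higher and 1 lower in *mdx*, and 23 higher and 0 lower in D2-*mdx*, so that the higher share in *mdx* was near the 22.2% of all genes, while in D2-*mdx* 24.1% of all genes were higher. *Ndufb5*, an accessory subunit of the membrane arm, was at 145 CPM in B10, 247 CPM in *mdx*, 158 CPM in DBA and 284 CPM in D2-*mdx*. Its log2 ratios of 0.77 [0.72, 0.81] and 0.85 [0.80, 0.90] were the highest of the members compared of the complex in each comparison. *Ndufa11*, a membrane-arm subunit, was at 127, 157, 121 and 206 CPM, and its ratios lay further apart, at 0.31 [0.25, 0.36] and 0.77 [0.71, 0.83]. The low end was held by *Ndufa1*, a small membrane-arm subunit encoded on the X chromosome, at 119, 88.6, 110 and 104 CPM, and by *Ndufv3*, a subunit of the NADH-oxidizing arm, at 165, 142, 176 and 166 CPM. *Ndufa1* had ratios of -0.43 [-0.49, -0.36] and -0.08 [-0.15, -0.01], and *Ndufv3* of -0.22 [-0.27, -0.17] and -0.08 [-0.14, -0.03].

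Complex II, succinate dehydrogenase, is the only complex with no mitochondrially encoded subunit, and its 4 genes did not move as one. *Sdhd*, a membrane anchor, was at 57.3 CPM in B10, 70.6 CPM in *mdx*, 54.5 CPM in DBA and 92.7 CPM in D2-*mdx*, and *Sdhb*, the iron-sulfur subunit, at 99.7, 121, 113 and 178 CPM. Their log2 ratios were 0.30 [0.22, 0.38] and 0.77 [0.68, 0.85] for *Sdhd* and 0.28 [0.22, 0.34] and 0.66 [0.60, 0.72] for *Sdhb*. *Sdhc*, the other anchor, was at 64.6, 71.9, 48.7 and 69.7 CPM, with 0.16 [0.08, 0.23] and 0.52 [0.42, 0.61]. The flavoprotein *Sdha*, which oxidizes succinate, went the other way, at 120 CPM in B10 against 88.4 CPM in *mdx* and 114 CPM in DBA against 101 CPM in D2-*mdx*. Its ratios of -0.44 [-0.50, -0.38] and -0.18 [-0.25, -0.11] were the lowest of all compared nuclear members in both comparisons. By the same limit, 0 of the 4 were higher and 1 lower in *mdx*, and 3 higher and 0 lower in D2-*mdx*, beside 26.4% of all genes lower in *mdx* and 24.1% higher in D2-*mdx*.

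Complex III, the cytochrome bc1 complex, was higher in both dystrophic libraries through nearly all of its nuclear members, with 7 of 8 higher and 0 lower in each comparison, where 22.2% and 24.1% of all genes were higher and 26.4% and 31.2% lower. *Uqcrfs1*, the Rieske iron-sulfur protein, was at 98.9 CPM in B10, 181 CPM in *mdx*, 108 CPM in DBA and 213 CPM in D2-*mdx*, with log2 ratios of 0.87 [0.82, 0.93] and 0.98 [0.92, 1.04]. *Uqcrh*, the hinge protein that meets cytochrome c, was at 481, 841, 602 and 878 CPM, and *Uqcrb*, a subunit of the ubiquinone pocket, at 212, 333, 217 and 397 CPM. The *Uqcrh* ratios were 0.81 [0.78, 0.83] and 0.55 [0.52, 0.57], and those of *Uqcrb* 0.65 [0.61, 0.69] and 0.87 [0.83, 0.91]. Lowest were *Uqcr11* at 317, 331, 330.1 and 392 CPM (0.06 [0.03, 0.10] and 0.25 [0.21, 0.29]), *Uqcr10* at 209, 263, 194 and 288 CPM (0.33 [0.29, 0.37] and 0.57 [0.52, 0.62]) and *Uqcrc2*, a core protein, at 123, 182, 131 and 181 CPM (0.56 [0.51, 0.61] and 0.46 [0.41, 0.52]).

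Complex IV, cytochrome c oxidase, had 12 of its 18 nuclear members compared, 9 of which were higher in *mdx* and 10 in D2-*mdx*, with 0 lower in each, against 22.2% and 24.1% of all genes higher and 26.4% and 31.2% lower. Beside *Cox5a*, the abundant *Cox8a* was at 700.2 CPM in B10, 1133 CPM in *mdx*, 693 CPM in DBA and 1175 CPM in D2-*mdx*, with log2 ratios of 0.69 [0.67, 0.72] and 0.76 [0.74, 0.79]. Between backgrounds its ratios were only 0.05 [0.03, 0.07] for D2-*mdx* over *mdx* and -0.01 [-0.04, 0.01] for DBA over B10. *Cox6a1*, the form of subunit 6a outside heart and skeletal muscle fibres, was at 293, 234, 265 and 260 CPM, with -0.32 [-0.36, -0.28] and -0.03 [-0.07, 0.02]. *Cox6c* was at 476, 523, 480.4 and 588 CPM, with 0.13 [0.11, 0.16] and 0.29 [0.26, 0.32]. *Cox6b2*, known as the testis form of subunit 6b, was low and lay on opposite sides in the 2 comparisons, at 13.1 CPM in B10, 11.2 CPM in *mdx*, 11.4 CPM in DBA and 18.8 CPM in D2-*mdx*, with -0.23 [-0.41, -0.04] and 0.72 [0.53, 0.91].

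Complex V, ATP synthase, had 16 compared nuclear members, of which 7 were higher in *mdx* and 11 in D2-*mdx*, with 0 lower, against the same shares of all genes (22.2% and 24.1% higher, 26.4% and 31.2% lower). High in both comparisons were *Atp5o*, in the peripheral stalk, at 184 CPM in B10, 313 CPM in *mdx*, 201 CPM in DBA and 399 CPM in D2-*mdx*, and *Atp5c1*, the rotating γ subunit, at 288, 520.5, 311 and 571 CPM. Their log2 ratios were 0.77 [0.72, 0.81] and 0.99 [0.95, 1.04] for *Atp5o* and 0.85 [0.82, 0.89] and 0.88 [0.84, 0.91] for *Atp5c1*. *Atp5f1*, also of the peripheral stalk, was at 219, 362, 229 and 429 CPM, with 0.73 [0.69, 0.76] and 0.91 [0.86, 0.95]. *Atp5b*, the catalytic β subunit often used as a marker of the complex, differed little at 518, 535, 542 and 601 CPM, with 0.05 [0.02, 0.07] and 0.15 [0.12, 0.18]. *Atp5g1*, which encodes the c subunit of the rotor, was at 286, 298, 322 and 432 CPM, with 0.06 [0.02, 0.10] and 0.42 [0.39, 0.46]. *Atp5sl*, which is not a subunit, was at 14.0, 17.3, 16.5 and 16.1 CPM, with 0.31 [0.15, 0.48] and -0.03 [-0.21, 0.14]. *Atp5g1*, *Atp5g2* and *Atp5g3* encode the same mature c subunit, and reads of such copies and of their pseudogenes cannot be placed with certainty.

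Between the backgrounds, the wildtype libraries hardly differed in nuclear members and the dystrophic ones did. For DBA over B10 the median log2 ratio was 0.01, as over all genes, with 3 of 77 higher and 2 lower beside 9.7% and 11% of all genes. For D2-*mdx* over *mdx* it was 0.19 against -0.02 over all genes, with 70 of 77 above 0, 13 higher and 0 lower beside 10.8% and 13.2%. The same 4 libraries enter all 4 comparisons, so the comparisons are not independent of each other.

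The mitochondrially encoded members were lower in *mdx* than in B10 in all 13 cases, and lower in D2-*mdx* than in DBA in 11 of 13. Their median log2 ratio was -0.55 for *mdx* over B10, with 7 lower, and -0.29 for D2-*mdx* over DBA, with 4 lower and 0 higher in either. Of all genes 26.4% and 31.2% were lower, so the count in D2-*mdx* was near the share of all genes. The ratios were uneven among the genes of complex I and of ATP synthase, although mitochondrial genes of the same strand are transcribed together. Only the 3′ end is read, and how evenly such reads capture each mitochondrial gene was not tested. *mt-Nd3*, a complex I core subunit, was at 587 CPM in B10, 236 CPM in *mdx*, 363 CPM in DBA and 235 CPM in D2-*mdx*, with -1.32 [-1.35, -1.28] and -0.63 [-0.67, -0.59]. *mt-Atp8*, a subunit of ATP synthase, was at 159, 67.7, 121 and 68.4 CPM, with -1.23 [-1.30, -1.17] and -0.83 [-0.90, -0.75]. *mt-Nd6*, the one member encoded on the light strand, was at 70.7, 33.3, 85.4 and 29.9 CPM, with -1.08 [-1.18, -0.99] and -1.51 [-1.62, -1.41]. These 3 genes had the lowest ratios in both comparisons, and no interval of a dystrophic library met one of a wildtype library.

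Among the more abundant mitochondrial transcripts, *mt-Nd2* was at 2694, 1485, 2087 and 1684 CPM, with log2 ratios of -0.86 and -0.31, and *mt-Nd1* at 2855, 1773, 3232 and 2620 CPM, with -0.69 and -0.30. *mt-Atp6* was at 6917, 4639, 5759 and 4726 CPM, with -0.58 and -0.29, and *mt-Nd5* at 676, 462, 637 and 533 CPM, with -0.55 and -0.26. The 3 oxidase genes differed less, with *mt-Co1* at 6694, 5829, 5716 and 4894 CPM (-0.20 and -0.22), *mt-Co2* at 5045, 4309, 5190 and 5314 CPM (-0.23 and 0.03) and *mt-Co3* at 7661, 6313, 7350 and 7103 CPM (-0.28 and -0.05). *mt-Cytb* of complex III was nearly level at 4691, 4580, 4172 and 4456 CPM (-0.03 and 0.10). *mt-Nd4* was at 2979, 2548, 2547 and 2477 CPM (-0.23 and -0.04) and *mt-Nd4l*, which overlaps it, at 336, 293, 395 and 308 CPM (-0.20 and -0.36). B10 was the highest library for 9 of the 13 genes, and B10 is also the library with the most barcodes over the mitochondrial limit. In the background comparisons the median was -0.17 for DBA over B10, with 3 members lower beside 11% of all genes. For D2-*mdx* over *mdx* it was 0.03, with 1 higher beside 10.8% of all genes. Over all genes these medians were 0.01 and -0.02.

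**Figure D2:**
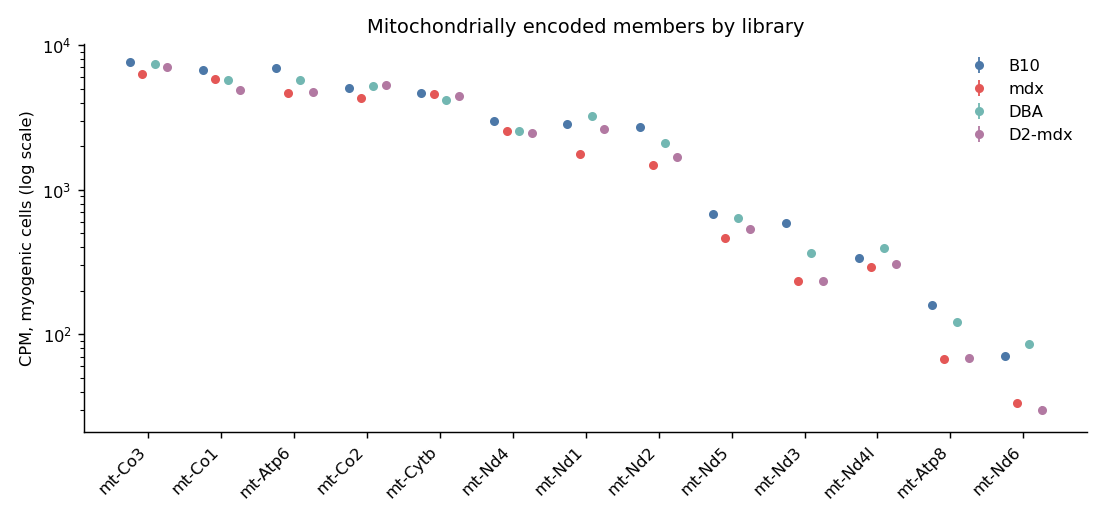
CPM of the 13 mitochondrially encoded members in the myogenic cells of each library on a log axis, with exact Poisson intervals for counting error. *mt-Nd3*, *mt-Atp8* and *mt-Nd6* are lower in both dystrophic libraries, while *mt-Cytb* and the oxidase genes lie close together.

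The libraries hold different mixtures of myogenic states, so the members were next described by state. Clusters were named by markers fixed in the design: MuSC-like (*Pax7*, *Myf5*), DMD-enriched-like (*Postn*, *Col1a1*, *Mgp*), cycling progenitor-like (*Mki67*, *Top2a*), differentiating myocyte-like (*Myog*, *Mymk*) and immunomyoblast-like (*Ifit1*, *Isg15*). A cluster led by *Esm1*, *Fosl1* and *Tnc* was left without a name. *Hells*, *Ung*, *Uhrf1* and *Cdc6* were also among its leading genes, and it scored highest for cycling progenitor, with 3 of those markers detected. Whether it stood apart from the cycling cells depended on the clustering, as the closing section gives. Members were kept out of the genes used for clustering. MuSC-like cells were 4170 of 4418 in B10 and 2549 of 2699 in DBA, against 3238 of 4817 in *mdx* and 2900 of 4184 in D2-*mdx*. The largest other group of the dystrophic libraries was DMD-enriched-like (933 in *mdx* and 619 in D2-*mdx*, with 34 in B10 and 45 in DBA). The cluster led by *Esm1* held 257 and 194 cells of the dystrophic libraries, with 84 and 52 in the wildtype ones. Differentiating myocyte-like cells were 183 and 160 (with 14 and 30) and cycling progenitor-like cells 121 and 278 (with 4 and 12). Immunomyoblast-like cells were 85 and 33 (with 112 and 11). Values are given for groups of at least 10 cells.

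Nuclear members took the least RNA in MuSC-like and immunomyoblast-like cells and the most in cycling and differentiating cells. Their share in MuSC-like cells was 1.75% for B10 against 1.81% for *mdx*, and 1.77% for DBA against 2.01% for D2-*mdx*, and in immunomyoblast-like cells 1.70%, 1.91%, 1.77% and 2.06% in that order. It was 2.09%, 2.43%, 2.23% and 2.78% in DMD-enriched-like cells and 2.14%, 2.30%, 2.18% and 2.61% in the Esm1-led cluster. Differentiating myocyte-like cells reached 2.64%, 3.58%, 2.58% and 3.50%, and cycling progenitor-like cells 3.66% in *mdx* and 3.81% in D2-*mdx*, with 2.22% in the 12 cells of DBA. Set against MuSC-like cells of the same library, the median log2 ratio of the 77 members was 1.08 in cycling cells of *mdx*, 0.90 in those of D2-*mdx* and 0.30 in the 12 of DBA, and 1.02 and 0.79 in differentiating cells, against 0.57 in the 14 differentiating cells of B10 and 0.49 in the 30 of DBA. Over all genes these medians were between -0.24 and -0.0025. By the same limit, 72 of 77 members were higher in cycling cells of *mdx*, where 28.4% of all genes were, and 68 in those of D2-*mdx*, where 28.7% were. In differentiating cells 73 were higher in *mdx* beside 28.8% and 71 in D2-*mdx* beside 27%.

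The mitochondrially encoded share followed the nuclear one across most states in *mdx*, but not in every library. It was 4.15%, 3.10%, 3.78% and 3.38% in MuSC-like cells. In *mdx* it was 3.38% in immunomyoblast-like, 3.50% in DMD-enriched-like, 3.64% in differentiating and 3.68% in cycling cells, but 2.70% in the Esm1-led cluster. Differentiating cells of B10 and DBA were at 3.98% and 3.62%, below the MuSC-like cells of the same library. The median log2 ratio of the 13 genes over MuSC-like cells of the same library was -0.09, 0.19, -0.05 and 0.02 in differentiating cells. In the cycling cells of *mdx*, DBA and D2-*mdx* it was 0.34, -0.35 and 0.16. Cycling, differentiating, DMD-enriched-like and Esm1-led cells also held more UMIs per cell than MuSC-like cells. Across the myogenic cells of a library, nuclear share and total UMIs had a Spearman correlation of 0.45 in *mdx* and 0.46 in D2-*mdx*. In B10 and DBA it was 0.14 and 0.13. Within MuSC-like cells alone it was 0.15 in *mdx* and 0.13 in D2-*mdx*, against 0.12 in B10 and 0.07 in DBA. Both measures are taken from the same cell. A small MuSC-like cluster led by *Gm42418*, *Lars2* and *AY036118*, which accompany low RNA quality, held 109, 66, 22 and 16 cells, with a nuclear share of 0.83% and a mitochondrially encoded share of 5.66% in B10. The medians and counts of the library comparisons kept their direction without it.

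**Figure D3:**
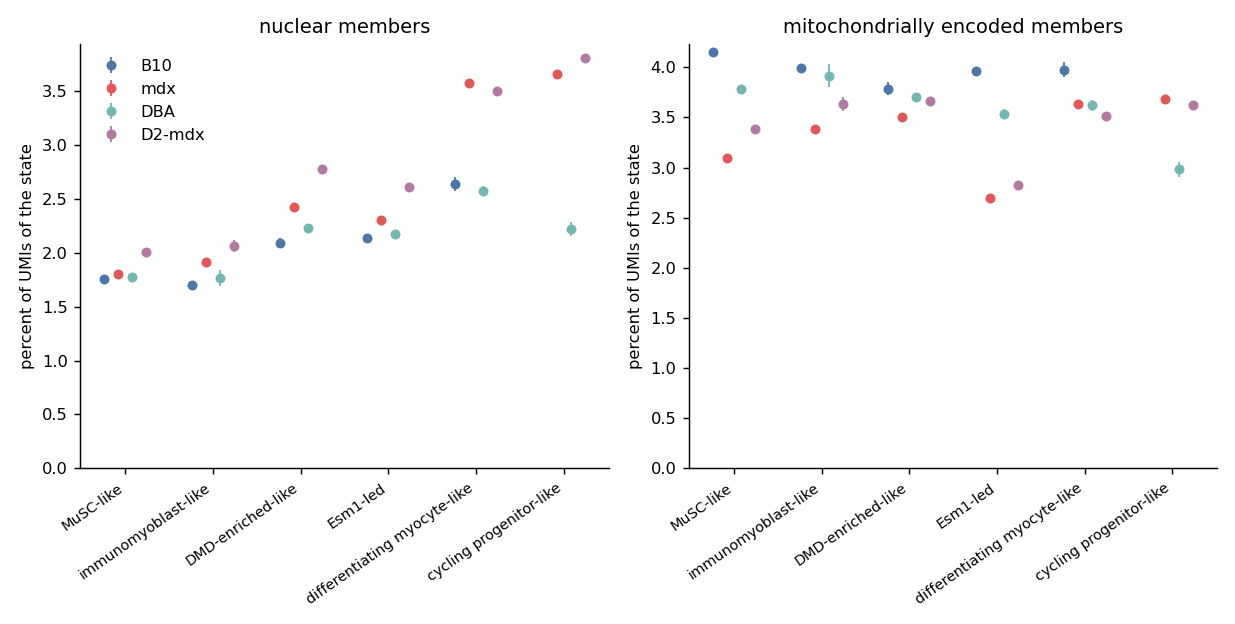
Percent of UMIs in nuclear (left) and mitochondrially encoded (right) OXPHOS members by myogenic state and library, for states with at least 10 cells in the library. The nuclear share is highest in cycling and differentiating cells, at up to 3.81%. The order of states in the mitochondrially encoded share differs between libraries. B10 is the highest library in each state where it has a point.

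Within single states, the difference between dystrophic and wildtype libraries in nuclear members varied in size, and was smallest in MuSC-like cells, which are the most numerous. In MuSC-like cells the median log2 ratio of *mdx* over B10 was -0.02, against -0.07 over all genes, with 10 of 77 higher and 7 lower beside 14.5% and 24.1% of all genes. For D2-*mdx* over DBA it was 0.17, with 18 higher and 2 lower beside 16.8% and 26.5%. By complex, the MuSC-like medians of *mdx* over B10 were -0.05 in complex I, -0.23 in II, 0.13 in III, -0.01 in IV and 0.09 in V. Those of D2-*mdx* over DBA were 0.17, 0.16, 0.23, 0.18 and 0.20 in the same order. Several members with large ratios in all myogenic cells were still above 0 there. *Uqcrh* was at 0.61 [0.58, 0.64] and 0.40 [0.37, 0.43], *Uqcrfs1* at 0.54 [0.47, 0.61] and 0.57 [0.49, 0.64] and *Atp5c1* at 0.47 [0.43, 0.52] and 0.52 [0.48, 0.57]. *Atp5o* at 0.16 [0.11, 0.22] and 0.40 [0.35, 0.46] and *Atp5f1* at 0.26 [0.21, 0.31] and 0.43 [0.38, 0.48] lay further below their ratios in all myogenic cells. *Atp5b* lay below 0 in MuSC-like cells, at -0.54 [-0.58, -0.50] and -0.39 [-0.43, -0.35], as did *Sdha* at -0.56 [-0.64, -0.48] and -0.30 [-0.39, -0.21] and *Cox6a1* at -0.48 [-0.53, -0.43] and -0.24 [-0.29, -0.18]. In DMD-enriched-like cells the medians were 0.11 and 0.23, against 34 cells of B10 and 45 of DBA. In the Esm1-led cluster they were 0.09 and 0.25, against 84 cells of B10 and 52 of DBA. In immunomyoblast-like cells they were 0.10 and 0.21, the second from 33 cells of D2-*mdx* against 11 of DBA. In differentiating cells they were 0.45 and 0.44, against 14 cells of B10 and 30 of DBA, and in cycling cells the D2-*mdx* over DBA median was 0.83, against 12 cells of DBA. The differentiating *mdx* over B10 median lay above the 0.30 of all myogenic cells and the cycling D2-*mdx* over DBA median above the 0.48. The mitochondrially encoded members were lower in the dystrophic libraries within MuSC-like cells as well, with medians of -0.61 and -0.31 and with 10 and 5 of 13 lower, beside the 24.1% and 26.5% of all genes.

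Per cell, the median nuclear share of MuSC-like cells was 1.73% for B10 against 1.74% for *mdx*, and 1.75% for DBA against 1.95% for D2-*mdx*. The median depth was 8355, 5669, 10182 and 5608 UMIs per cell in the same order. The 3 first libraries lay together and D2-*mdx* above them. For D2-*mdx* over *mdx*, whose cells were of like depth, the median log2 ratio in MuSC-like cells was 0.17.

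Within cycling progenitor-like cells the dystrophic libraries were alike in their nuclear members as a whole, with a median log2 ratio of D2-*mdx* over *mdx* of 0.04 and with 3 of 77 members higher and 4 lower, beside 19.9% and 21.2% of all genes. *Cox5a* was among the higher ones. In differentiating cells the same median was -0.04, with 3 higher and 2 lower beside 20.3% and 18% of all genes.

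*Cox5a* showed both patterns at once, with an order of states and an order of libraries inside each state. In MuSC-like cells it was at 146 CPM in B10 [142, 150.2], 184 CPM in *mdx* [178, 190.3], 169 CPM in DBA [164, 174] and 283 CPM in D2-*mdx* [275, 291]. DMD-enriched-like cells had 214 CPM [168, 268], 318 CPM [308, 328], 277 CPM [238, 321] and 603 CPM [585, 621] in the same order. In the Esm1-led cluster the levels were 285, 504, 400.5 and 817 CPM, in differentiating cells 297, 614, 506 and 991 CPM, and in cycling cells 750 CPM in *mdx* [710, 791], 336 CPM in DBA [260, 428] and 1460 CPM in D2-*mdx* [1425, 1496]. D2-*mdx* was the highest library in each of these 5 states, by more than the counting intervals. Immunomyoblast-like cells gave 133 CPM [111, 158], 208 CPM [176, 244], 171 CPM [103, 267] and 324 CPM [259, 399], and there the intervals of DBA and D2-*mdx* met.

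**Figure D4:**
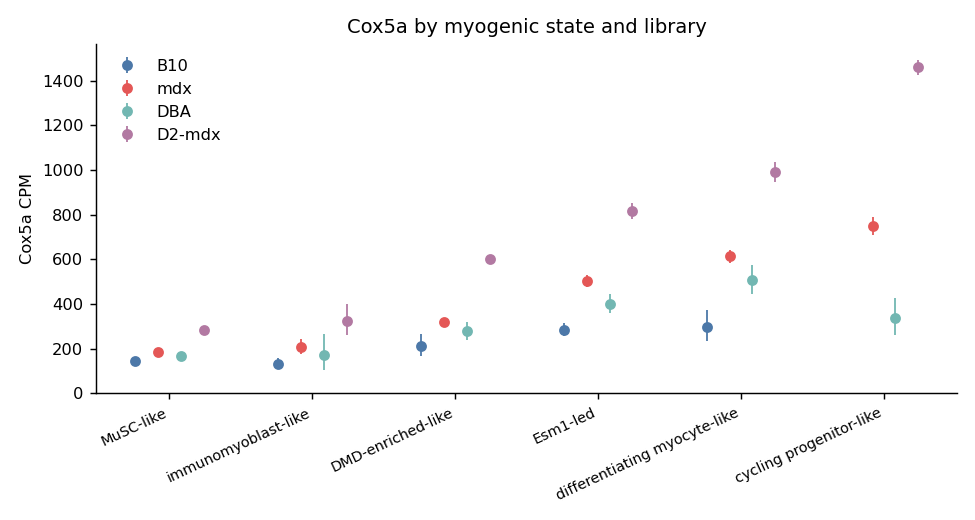
CPM of *Cox5a* by myogenic state and library with exact Poisson intervals, for states with at least 10 cells in the library. D2-*mdx* is the highest library in each state, from 283 CPM in MuSC-like cells to 1460 CPM in cycling cells.

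For each state the members with the largest ratio to the other states are given here as a description, because states were drawn from the same cells, and a large ratio does not make a state the highest. In cycling cells *Cox5a* stood at 849 CPM, 2.28 times the mean of the other states, and *Cox6b2* at 42.2 CPM, 3.06 times. The *Cox6b2* mean leaned on the 12 cells of DBA, with 71.3 CPM from 14 UMIs [39.0, 120], against 26.7 CPM in *mdx* from 47 UMIs and 28.4 CPM in D2-*mdx* from 129 UMIs. Differentiating cells had *Cox8b*, the muscle form of subunit 8, at 11.5 CPM or 5.62 times, from 5, 32, 3 and 16 UMIs in the 4 libraries, and *Atp5b* at 1050 CPM or 1.57 times. In the Esm1-led cluster *Atp5g1* was at 586 CPM or 1.44 times, below its 619 CPM in cycling cells. DMD-enriched-like cells had *Cox7a2l*, which takes part in joining complexes III and IV, at 486 CPM or 1.26 times, close to the 478 CPM of differentiating cells. *mt-Nd6* was at 67.2 CPM in immunomyoblast-like and 55.8 CPM in MuSC-like cells, the first from 13 to 65 UMIs per library.

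Other gene lists of the mitochondrion were compared in the same way, with the genes fixed in the design and the same limit of 0.32. These ratios are over all myogenic cells, whose mixture of states differs between libraries, and they were not repeated within single states. In cycling over MuSC-like cells of the same library, the mitochondrial ribosome had a median log2 ratio of 0.98 in *mdx* and 1.01 in D2-*mdx*. The part of the mixture in the lists was not tested. Of all genes 22.2% were higher and 26.4% lower in *mdx*, and 24.1% and 31.2% in D2-*mdx*, and several lists below had shares of higher genes near these. The mitochondrial ribosome, which translates the mitochondrially encoded members, moved with the nuclear members, with 40 of 75 genes higher and 1 lower in *mdx* (median log2 ratio 0.38) and 59 higher and 0 lower in D2-*mdx* (0.46). Its extremes were *Mrpl34* at 0.84 [0.74, 0.95] and *Mrps28* at -0.36 [-0.43, -0.28] in *mdx*, and *Mrps6* at 1.14 [0.98, 1.29] and *Mrpl48* at -0.13 [-0.22, -0.04] in D2-*mdx*. The cytosolic ribosome had 20 of 84 higher and 8 lower in *mdx* (0.11) and 8 higher and 15 lower in D2-*mdx* (-0.02), from *Rpl41* at 0.67 [0.66, 0.68] to *Rps27rt* at -0.68 [-0.74, -0.61] and from *Rpl6l* at 1.96 [1.84, 2.08] to *Rps18* at -0.69 [-0.71, -0.68], and copies of these genes are uncertain. Carriers and pores, which exchange ADP, ATP, phosphate and proteins, had 5 of 7 higher in *mdx* (0.52) and 6 in D2-*mdx* (0.51), led by the outer membrane channels *Vdac1* at 0.88 [0.83, 0.93] and *Vdac2* at 0.93 [0.88, 0.98]. The phosphate carrier *Slc25a3* at 0.22 [0.19, 0.25] and the import receptor *Tomm20* at 0.32 [0.27, 0.37] were the lowest.

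The citrate cycle and pyruvate dehydrogenase, which supply NADH and succinate, had 6 of 16 genes higher and 2 lower in *mdx* (0.22) and 7 higher and 0 lower in D2-*mdx* (0.27). *Idh3b* was at 0.68 [0.62, 0.74] in *mdx* and *Mdh2* at 0.92 [0.87, 0.97] in D2-*mdx*, while citrate synthase, *Cs*, the enzyme often used to gauge mitochondrial content, was lowest at -0.60 [-0.69, -0.50] and -0.30 [-0.40, -0.20]. Electron carriers had 6 of 15 higher and 1 lower in *mdx* (0.08) and 5 higher and 2 lower in D2-*mdx* (0.16). Cytochrome c, *Cycs*, which carries electrons from complex III to IV, was at 106 CPM in B10 and 172 CPM in *mdx* (0.70 [0.64, 0.75]) and at 107 CPM in DBA and 258 CPM in D2-*mdx* (1.27 [1.22, 1.33]). *Coq10a* at -0.42 [-0.58, -0.26] and *Adck3* at -0.91 [-1.03, -0.79], both of the ubiquinone pathway, were the lowest. Assembly factors had 10 of 36 higher and 2 lower in *mdx* (0.10) and 14 higher and 3 lower in D2-*mdx* (0.16), with *Sdhaf4*, which helps mature *Sdha* protein, highest at 0.84 [0.72, 0.97] and 0.75 [0.62, 0.88], and the copper chaperone *Cox17* at -0.50 [-0.58, -0.43] and *Cox16* at -0.57 [-0.75, -0.40] lowest. Regulators of mitochondrial biogenesis and transcription had 3 of 15 higher and 1 lower in *mdx* (-0.02) and 2 higher and 2 lower in D2-*mdx* (-0.04). Among them the coactivator *Ppargc1b* was highest at 0.67 [0.49, 0.86] and 0.99 [0.79, 1.19], and *Gabpa*, which binds ETS sites, lowest at -0.42 [-0.53, -0.31] and -0.54 [-0.66, -0.42].

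Across the cell types in the sort, vascular smooth muscle-like cells gave the largest share to both sets of members. Their nuclear share was 3.87% as a mean of 3 libraries with at least 10 cells (3.69% to 4.10%, 14 to 55 cells each). The mean was 2.09% in myogenic cells, 1.93% in endothelial-like and in white blood cell-like cells and 1.90% in pericyte-like cells (1.73% to 2.12%, 96 to 976 cells). It was 1.88% in myelinating Schwann cell-like cells, 1.78% in glial-like cells and 1.73% in fibroblast or tenocyte-like cells. The mitochondrially encoded share was 4.68% in vascular smooth muscle-like cells, 4.29% in Schwann cell-like cells and 3.76% in glial-like cells. It was 3.35% in pericyte-like cells and 2.63% in fibroblast or tenocyte-like cells. The surface markers of the sort were chosen for satellite cells, so these types are what passed it, not their share of muscle.

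The members that separate cell types most are the forms known from hypoxia and from particular tissues. *Ndufa4l2*, the paralog of *Ndufa4* known as a target of hypoxia-inducible factor, was at 465 CPM in pericyte-like cells of B10, 834 CPM in *mdx*, 561 CPM in DBA and 783 CPM in D2-*mdx*, and at 1092 CPM in *mdx*, 631 CPM in DBA and 1091 CPM in D2-*mdx* in vascular smooth muscle-like cells. In myogenic cells it was at 0.30, 3.22, 1.59 and 6.11 CPM, from 12, 130, 48 and 213 UMIs. Of the UMIs of *Ndufa4* and *Ndufa4l2* together, *Ndufa4l2* held 74.5%, 89.1%, 78.3% and 83.2% in pericyte-like cells and 53.4% to 68.3% in vascular smooth muscle-like cells. *Cox4i2*, the form of subunit 4 known from lung and low oxygen, was at 145, 204, 144 and 196 CPM in pericyte-like cells and at 355 CPM in *mdx*, 184 CPM in DBA and 479 CPM in D2-*mdx* in vascular smooth muscle-like cells. It held 17.6% to 21.1% of the UMIs of *Cox4i1* and *Cox4i2* in pericyte-like cells and 12.6% to 24.5% in vascular smooth muscle-like cells, against 1.88, 2.28, 2.12 and 3.27 CPM in myogenic cells. Both genes were thus shared by the mural cell types and near 0 in satellite cells.

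With each cell thinned to 3000 UMIs, 70.2%, 83.8%, 72.5% and 79.6% of pericyte-like cells had an *Ndufa4l2* UMI (90.6%, 95.3%, 90.5% and 91.7% before thinning), against 0.07%, 1.24%, 0.63% and 1.45% of MuSC-like cells. In *mdx* and D2-*mdx*, 1.96% and 3.46% of glial-like cells and 3.57% and 6.74% of endothelial-like cells had one. Of the 29 and 50 fibroblast or tenocyte-like cells there, 17.2% and 6% had one. *Cox4i2* UMIs were in 29.8%, 43.4%, 33.1% and 40.5% of pericyte-like cells and in 0.55% to 0.72% of MuSC-like cells. Pericyte-like cells were 14.8% of the kept DBA cells and 9.68% of the kept *mdx* cells, while myogenic *Ndufa4l2* was lower in DBA than in *mdx*. B10 had the lowest share (2.10%) and the lowest level, and D2-*mdx* the highest of both. The part of free RNA in these low levels was not tested.

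**Figure D5:**
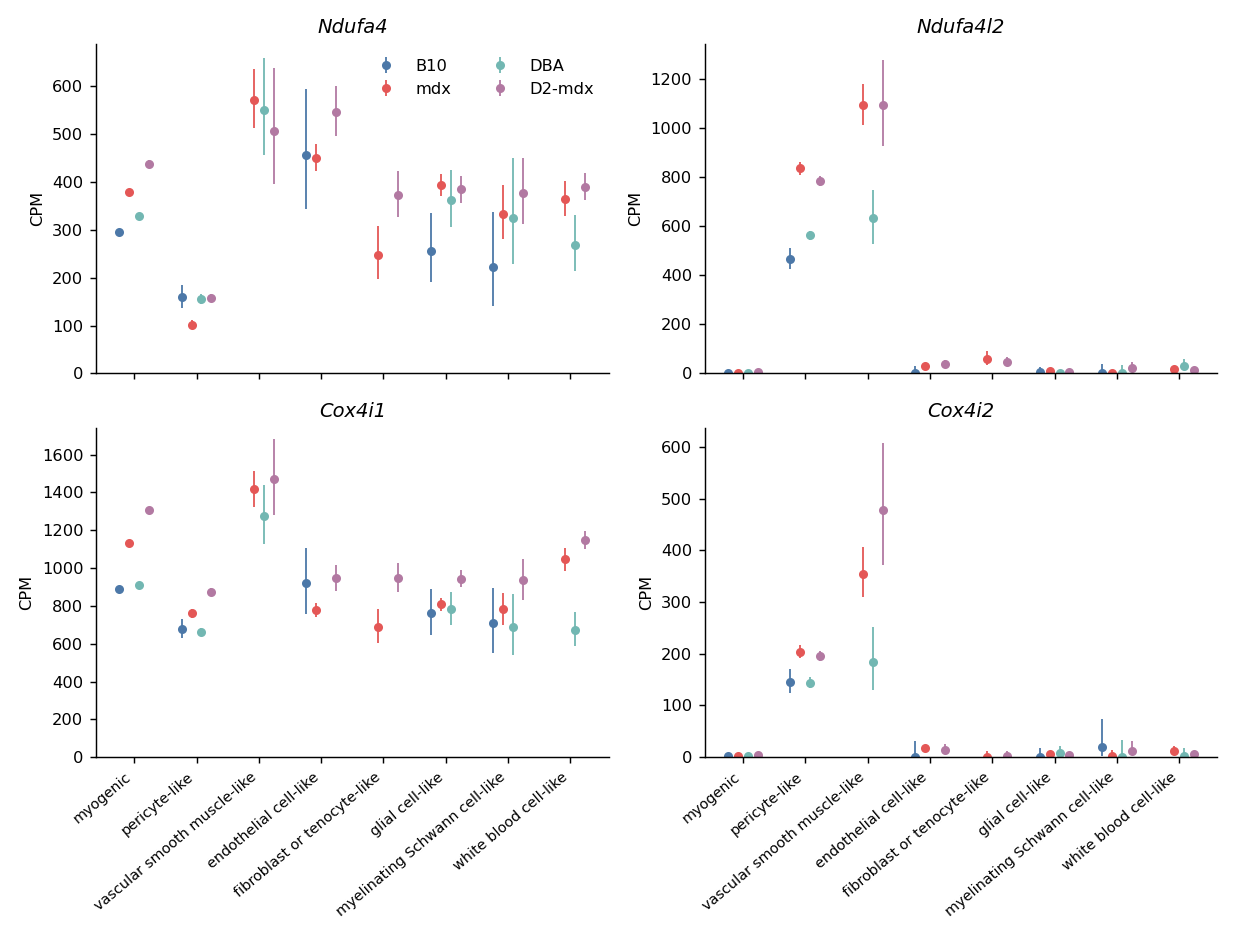
CPM of *Ndufa4* and *Ndufa4l2* (top) and of *Cox4i1* and *Cox4i2* (bottom) by cell type and library on linear axes, with exact Poisson intervals, for groups of at least 10 cells. *Ndufa4l2* and *Cox4i2* reach 144 to 1092 CPM in pericyte-like and vascular smooth muscle-like cells and stay under 10 CPM in myogenic cells.

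The other tissue forms were low in every type. *Cox7a1*, the heart and muscle form of subunit 7a, was at 28.0 CPM in vascular smooth muscle-like and 27.8 CPM in pericyte-like cells (26.6 to 29.4 over the libraries), and at 4.71, 3.57, 8.70 and 6.85 CPM in myogenic cells. *Cox6a2*, the form of striated muscle, was at 0.95, 1.19, 1.00 and 3.67 CPM in myogenic cells, from 38 to 128 UMIs, and *Cox8b* at 3.13, 2.51, 1.43 and 3.64 CPM. In both, D2-*mdx* was highest, the library that also held the most myofibre RNA, and the part of myofibre RNA in these low levels was not tested. Of the 3 genes of the c subunit, *Atp5g2* held the most UMIs in myogenic cells, with 55.2% of the sum for *mdx* against 49.9% for B10, 50.8% for DBA and 50.3% for D2-*mdx*, and *Atp5g1* was at 24.4% for *mdx* against 28.8% to 29.8% in the others. In pericyte-like cells *Atp5g2* held 29.6% to 39.9%. Read in the same way, by the ratio to the other types, vascular smooth muscle-like cells stood out for *Sdhc* at 263 CPM, with 91.8 CPM in pericyte-like cells as the next. Endothelial-like cells had *Ndufa8* at 310 CPM and *Atp5j* at 714 CPM, beside 293 and 766 CPM in vascular smooth muscle-like cells. Schwann cell-like cells had *Ndufa13* at 705 CPM and *Ndufv2* at 214 CPM, beside 781 and 206 CPM there, and myogenic cells had *Atp5g2* at 619 CPM, beside 629.7 CPM there. Glial-like cells had *mt-Atp8* at 105 CPM and *Ndufb4* at 204 CPM, close to the 104 CPM of myogenic and the 205 CPM of Schwann cell-like cells. *Cox6b2* was at 30.7 CPM in pericyte-like cells and 24 CPM in white blood cell-like cells, the latter from 6, 16 and 29 UMIs in 3 libraries. *Cox8b* was at 11.6 CPM in fibroblast or tenocyte-like cells, from 5 UMIs in each of 2 libraries.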

How the data were processed

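UMI counts per gene and barcode were used as deposited. Reads of 10X Genomics 3′ v3.1 libraries were aligned by the authors to mm10 in Cell Ranger 3.0.1, which also counted the UMIs, and the deposited counts are whole numbers without normalization. Whether the barcodes had been filtered before deposition is not given in the sources used here. Because only the 3′ end is read, counts were not scaled by length, and levels of different genes were not compared except as shares of a pair of forms.

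The limits of the study were used to keep cells (1000 to 5000 genes, mitochondrial UMIs up to 8%), and the cells with the highest Scrublet scores (scanpy 1.11.5) were removed up to the expected doublet rate of 0.008 per 1000 cells. Libraries were integrated in Seurat 5.3.0 (R 4.3.3) by canonical correlation analysis on 2000 features and 30 dimensions, and all cells were clustered at resolution 0.1 and myogenic cells at 0.4, with the members left out of the features. The design had named features as chosen and resolution 0.2. Several clusterings were inspected by their leading genes, and the members' values by state had been seen when this one was kept, so the closing section gives the values as first designed. A cluster took the name whose markers had the highest mean score in it, if 3 or more were detected. For myogenic states other than MuSC-like, a marker of that name also had to be among the leading genes of the cluster. The cluster led by *Esm1* scored highest for cycling progenitor, with 3 markers detected but none among its leading genes. Its 587 cells were therefore not counted as cycling. Cells with over 0.5% of UMIs in *Acta1*, *Tnnc2* and *Tnnt3* (0, 3, 1 and 5) were left out as myofibre-like.

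UMIs were summed per library, state and type and divided by the total to give CPM, with exact Poisson intervals for levels, exact binomial (Clopper-Pearson) intervals for shares and exact conditional binomial intervals for ratios, at 95%. UMIs count molecules, yet the intervals cover counting error only. The computation of ratios and intervals was checked on simulated data, where 95.2% of intervals over the 8058 genes of *mdx* against B10 held the ratio set. The simulated counts were Poisson draws, the error that the intervals assume, so this cannot show how they hold for spread between cells or mice. Other scalings used edgeR 4.0.16 (TMM) and DESeq2 1.42.0. Alternatives in filters, cells, doublets, scaling, minimum level, features, dimensions and resolution are in the closing section. Gene positions are from GENCODE M21 on GRCm38.

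Named genes are all mitochondrially encoded members, the 2 nuclear members of each complex with the highest and the 2 with the lowest ratio in each disease comparison, all tissue forms, the 2 members with the largest ratio to the other states or types in each state or type, the highest and lowest gene of each other list, and *Dmd*. A member that the rule names is not reported here. Members and lists were chosen with earlier results of these data known.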

Additional observations from a re-analysis of the deposited data

Results flagged for a closer look

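The log2 ratio of *Cox6b2* was -0.23 for *mdx* over B10 and 0.72 for D2-*mdx* over DBA, so the 2 backgrounds moved in opposite directions, and the difference was not tested. *mt-Co2* was at -0.23 and 0.034, and *mt-Cytb* at -0.035 and 0.10, also on opposite sides and not tested. Under TMM or DESeq2 scaling *mt-Cytb* was above 0 in both, and in MuSC-like cells *mt-Co2* was below 0 in both.

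Barcodes left out of all comparisons also carried the members. In those with over 5000 genes, nuclear members held 3.29% of UMIs in *mdx* (214 barcodes) against 1.93% in B10 (41) and 3.45% in D2-*mdx* (502) against 2.05% in DBA (129). In those left out only for over 8% mitochondrial UMIs, the nuclear share was 2.13% in *mdx* (269) against 1.31% in B10 (389) and 2.81% in D2-*mdx* (214) against 2.42% in DBA (29), and the mitochondrially encoded share was 11.8% in *mdx* against 11.7% in B10 and 13.7% in D2-*mdx* against 11.1% in DBA.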

How the results depend on the processing

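No paired analysis was possible because each group is a single library, and for the same reason no library could be left out. Of the summary values under all alternatives, 256 were unchanged within their counting interval or 1.5-fold, 92 moved and 2 changed sign, and of the values of single members 456 were unchanged, 370 moved and 32 changed sign. Where the cause of a change is not given by the alternative itself, it was not tested.

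The largest dependence was on the cells. With MuSC-like cells only, the nuclear median was -0.019 for *mdx* over B10 (10 members higher, 7 lower) and 0.17 for D2-*mdx* over DBA (18 higher, 2 lower), with 1 lower in D2-*mdx* over *mdx*, and the mitochondrially encoded medians were -0.61 and -0.31. The nuclear shares were then 1.75%, 1.81%, 1.77% and 2.01% and the mitochondrially encoded shares 4.15%, 3.10%, 3.78% and 3.38% in B10, *mdx*, DBA and D2-*mdx*. In these cells the *mdx* over B10 ratio changed sign for *Sdhd* (-0.19), *Sdhb* (-0.14), *Sdhc* (-0.27), *Uqcr11* (-0.31), *Atp5b* (-0.54), *Atp5g1* (-0.42), *Ndufa11* (-0.0011) and *Cox6c* (-0.17), and the D2-*mdx* over DBA ratio for *Ndufv3* (0.063), *Uqcr11* (-0.12), *Atp5b* (-0.39), *Atp5g1* (-0.069), *Cox6c* (-0.031) and *mt-Co2* (-0.031).

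With all kept cells, the D2-*mdx* over DBA medians were 0.43 and -0.27 (nuclear, then mitochondrially encoded), those of D2-*mdx* over *mdx* 0.16 and -0.012 (8 members higher, 1 lower), and the DBA over B10 mitochondrially encoded median -0.22, with 1 member lower both there and in *mdx* over B10. The nuclear shares were 1.778%, 2.18%, 1.803% and 2.43%, the mitochondrially encoded ones 3.24%, 3.66% and 3.34% in *mdx*, DBA and D2-*mdx*, and *Atp5b* (-0.023) and *Atp5g1* (-0.017) changed sign in *mdx* over B10. With each cell weighted alike, the nuclear medians were 0.17 and 0.36 in the disease comparisons. Of the 77 nuclear members, 17 and 45 were then higher, beside 18.4% and 21.1% of all genes. There were 3 and 0 lower, beside 25.1% and 28.1%. The mitochondrially encoded medians were -0.30 for D2-*mdx* over DBA and -0.19 for DBA over B10. Nuclear shares were 1.745%, 2.02%, 1.793% and 2.29% and mitochondrially encoded shares 4.21%, 3.263%, 3.774% and 3.43%. *Sdhc* (-0.038), *Uqcr11* (-0.081), *Atp5b* (-0.15) and *Atp5g1* (-0.11) then changed sign in *mdx* over B10 and *Atp5b* (-0.074) in D2-*mdx* over DBA.

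With at most 5% mitochondrial UMIs, the mitochondrially encoded medians were -0.52, -0.35 and, for DBA over B10, -0.079, with shares of 3.71%, 2.99%, 3.59% and 3.16%, nuclear shares of 2.20% in *mdx* and 2.497% in D2-*mdx*, and a change of sign for *Atp5b* (-0.0034) and *mt-Cytb* (0.0081) in *mdx* over B10 and *mt-Co2* (-0.022) in D2-*mdx* over DBA. With no such limit they were -0.502, -0.14 and -0.26, with shares of 4.45%, 3.53%, 3.83% and 3.86% and nuclear shares of 1.750% in B10 and 2.55% in D2-*mdx*, and *mt-Co3* (0.078) and *mt-Nd4* (0.10) changed sign in D2-*mdx* over DBA. With a lower limit of 500 genes and none above, the nuclear medians were 0.38, 0.64 and, for D2-*mdx* over *mdx*, 0.28 (27 members higher), the mitochondrially encoded medians -0.504, -0.31, 0.013 and, for DBA over B10, -0.18, the nuclear shares 2.42%, 1.84% and 2.91% in *mdx*, DBA and D2-*mdx* and the mitochondrially encoded shares 4.126%, 3.23%, 3.74% and 3.28%, and *mt-Co2* (-0.012) changed sign in D2-*mdx* over DBA. With doublets kept, the shares of *mdx* were 2.219% and 3.244%.

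Scaling changed sizes and no member median's direction. The median over all genes, which was slightly below 0, did change sign. For *mdx* over B10 it was 0.028 under TMM and 0.032 under DESeq2. Under DESeq2 it was also above 0 for D2-*mdx* over DBA (0.010) and for D2-*mdx* over *mdx* (0.0034). TMM gave 0.36, -0.49 and, for the mitochondrially encoded members of D2-*mdx* over DBA, -0.24. DESeq2 size factors gave 0.36 and -0.49 in *mdx* over B10 and 0.56 and -0.21 in D2-*mdx* over DBA. Under TMM and DESeq2, 43 and 44 of the 77 nuclear members were higher in *mdx* over B10, beside 26.0% and 26.2% of all genes. *mt-Cytb* changed sign in *mdx* over B10 under both (0.019 and 0.022), and *mt-Nd4* (0.0072 under TMM, 0.036 under DESeq2) and *mt-Co3* (0.027 under DESeq2) in D2-*mdx* over DBA. Without mitochondrially encoded and ribosomal UMIs the mitochondrially encoded median of DBA over B10 was -0.15. With no minimum level, 4 members were lower in *mdx* over B10, 1 in D2-*mdx* over DBA and 4 in DBA over B10, where 5 were higher. At resolution 0.2 the nuclear share of differentiating cells was 2.53% in place of 3.07%, no DMD-enriched-like cluster was found, and in the deeper cells alone *Cox7a1* of pericyte-like cells was 26.2 CPM.

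As first designed, with members among the clustering features and resolution 0.2, the nuclear share was 1.78% in MuSC-like, 2.25% in DMD-enriched-like, 2.65% in cycling, 3.08% in differentiating and 1.86% in immunomyoblast-like cells, against 1.84%, 2.38%, 3.23%, 3.07% and 1.86% as reported, and no Esm1-led cluster was found. As first designed, the DMD-enriched-like cluster held 3528 cells, 733 of them of B10 and 350 of DBA, against 1631, 34 and 45 as reported. The cycling cluster then had *Esm1* among its leading genes and held 842 cells against 422, before myofibre-like cells were left out. The same names thus cover different sets of cells. With 20 dimensions cycling cells were at 2.62%, in a cluster of 902 cells that also had *Esm1* among its leading genes. This alternative and that without the cluster led by *Gm42418*, which changed no summary value beyond those limits, were chosen after seeing the data. Depth limits the cycling cells of B10 (4) and DBA (12), the differentiating cells of B10 (14) and the immunomyoblast-like cells of DBA (11). The intervals cover counting error only.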

Other observations

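The 4739 barcodes of B10 with under 1000 genes, which no comparison used, held 46.0% of their UMIs in mitochondrially encoded members and 0.639% in nuclear ones. The other libraries had 11 to 21 such barcodes, with 0.12% to 4.70% in mitochondrially encoded members and 0.039% to 0.58% in nuclear ones.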
